A study of Mus musculus with 2 samples.

Results

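The inflammatory phagocytes described here are Lyz2-expressing cells of mouse B16-F10 melanomas that carried RNA of Inhba, Egln3, Pdpn and Slc7a2 and little RNA of complement C1q. Barcodes of both libraries with at least 1000 unique molecular identifiers (UMIs, each 1 captured RNA molecule), at least 300 genes and at most 10% mitochondrial UMIs were kept. A member had at least 5 UMIs of Inhba, Egln3, Pdpn and Slc7a2 together (the score below), at least 5 UMIs of Lyz2 and under 10 UMIs of C1qa, C1qb and C1qc per 10000. It also had at most 1 UMI of Cd3d, Cd3e and Cd3g, none of Xcr1, Clec9a or Siglech, and under 6 of Ccr7, Fscn1 and Cacnb3, which kept out T cells, cross-presenting and plasmacytoid dendritic cells and mature dendritic cells. These limits gave 667 members of 20216 kept barcodes, of which 430 of 11238 were in the knockout library and 237 of 8978 in the WT library.

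The study asked how immune cells differ between tumours whose melanoma cells lack DGAT1, an enzyme of the last step of triglyceride synthesis, and tumours of control melanoma cells. B16-F10 is a mouse melanoma cell line. The knockout group held 3 tumours of DGAT1-knockout B16-F10 cells and the WT group 3 tumours of B16-F10 cells labelled wild type, all taken 14 days after injection, digested with collagenase D and DNase I and sorted for live CD45+ cells. The edit is in the tumour cells and the sorted cells are of the host, whose strain, sex and age the sources used here do not give, nor do they give the edited part of the gene or whether the knockout cells were 1 clone. Each group is 1 library in which no cell can be traced to its tumour, so differences between groups have no replicate check and were not tested. In the members Dgat1 stood at 18.3 and 22.2 CPM (counts scaled to a common total of UMIs per set of cells), which checks nothing about the edit.

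Monocytes enter a tumour from the blood and turn into macrophages, and on the way they lose Ly6c2 and Ccr2 and gain C1q genes. Under low oxygen the factor HIF-1 raises genes of glycolysis, blood vessel growth and its own brake, the prolyl hydroxylase gene Egln3. Inhba encodes a subunit of activin A, a cytokine of the TGF-beta family. Slc7a2 encodes an importer of arginine, which Nos2 turns into nitric oxide and Arg1 into ornithine, and Pdpn encodes the surface protein podoplanin. Phagocytes that carry Nos2 and Arg1 are known for restraining T cells.

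Where values are paired below, the knockout library comes first. Levels are CPM of the UMIs summed over the cells of a set, with exact 95% bounds, which take in counting error alone. The members were set beside monocytes (at least 5 UMIs of Ly6c2 and Ccr2 together, score under 5, low C1q) and C1q macrophages (at least 10 UMIs of C1q per 10000, score under 5), under the same exclusions. A gene is called higher or lower than in those sets where it differed at least 2-fold in both libraries, and between libraries where it differed at least 1.5-fold.

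Members had a median of 11960 and 12898 UMIs and 3129 and 3237 genes per cell. That is near the monocytes, at 10235.5 and 11588 UMIs, and below the C1q macrophages, at 14475 and 20608. The libraries shared 25 kept barcodes, of which 1 belonged to a member in 1 library and 0 to members in both. Some members were rich in markers of another cell type, 19 in the knockout and 12 in the WT library. They held 3.80% and 12.5% of the members' UMIs. Of these, 13 and 7 held at least 20 UMIs of the neutrophil genes S100a8, S100a9, Retnlg and Ly6g, 4 and 1 at least 5 UMIs of NK and T cell markers, and 1 and 1 at least 3 of B cell markers. Cells with at least 20 melanoma UMIs numbered 1 and 3, and the 3 WT cells alone held 8.43% of the WT members' UMIs, 2 of them with 165757 and 133809 UMIs. Comparisons of the libraries are therefore given with and without the marker-rich cells, whose removal was chosen after their values were seen.

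Promoter sequences of 2 genes that define the members and 2 that the comparisons below turn on are shown first, because they hold the core of the hypoxia response element or an AP-1 site. Each is the 250 bases before a transcription start in RefSeq (GRCm38.p6), read on the gene's strand from 5′ to 3′. Capitals mark the core ACGTG, searched on both strands, so that CACGTG is a match on each, or the AP-1 site TGAGTCA. Egln3 (chromosome 12, 54178981 to 54203860, minus strand, mm10) comes first, and its window was chr12:54203875-54204124. Pdpn (chromosome 4, 143267431 to 143299564, minus strand) had the window chr4:143299565-143299814. Bnip3, a hypoxia-induced gene of mitochondrial removal, had the window chr7:138909507-138909756 on the minus strand. Mmp12, a metalloelastase gene on the plus strand of chromosome 9 from 7344381 to 7369499, has an annotated start inside the gene whose window was chr9:7347124-7347373. Its other window, chr9:7344147-7344396 at the start of the gene, held neither an AP-1 site nor the core and is not printed.
Egln3: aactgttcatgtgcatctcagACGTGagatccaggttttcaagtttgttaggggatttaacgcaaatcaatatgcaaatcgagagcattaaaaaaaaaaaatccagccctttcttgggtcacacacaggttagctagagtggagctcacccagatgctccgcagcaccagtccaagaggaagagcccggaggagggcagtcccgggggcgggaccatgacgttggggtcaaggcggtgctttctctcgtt
Pdpn: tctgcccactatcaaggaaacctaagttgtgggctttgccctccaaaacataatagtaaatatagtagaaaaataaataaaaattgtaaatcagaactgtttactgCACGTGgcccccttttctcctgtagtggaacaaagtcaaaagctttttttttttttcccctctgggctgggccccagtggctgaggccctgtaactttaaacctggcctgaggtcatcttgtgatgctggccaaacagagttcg
Bnip3: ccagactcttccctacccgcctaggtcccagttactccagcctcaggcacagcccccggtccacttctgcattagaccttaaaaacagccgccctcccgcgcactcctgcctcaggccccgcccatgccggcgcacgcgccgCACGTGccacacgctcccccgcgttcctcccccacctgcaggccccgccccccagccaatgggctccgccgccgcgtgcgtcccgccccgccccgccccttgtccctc
Mmp12: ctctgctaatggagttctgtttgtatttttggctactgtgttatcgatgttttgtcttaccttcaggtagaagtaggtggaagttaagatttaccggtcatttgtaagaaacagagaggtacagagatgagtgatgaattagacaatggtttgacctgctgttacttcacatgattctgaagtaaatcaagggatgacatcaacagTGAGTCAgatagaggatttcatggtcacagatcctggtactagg

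The first base of the match lay at -229 from the start in Egln3, at -144 and -143 in Pdpn, at -108 and -107 in Bnip3 and at -44 in Mmp12. Of all 32851 windows of this length, 16.6% held the core and 4.46% an AP-1 site (TGAGTCA or TGACTCA). Of the 6 marker genes, 3 had a window, and Inhba was without a match. Among hypoxia and glycolysis genes, 27 of 30 had windows, 39 in all, and 22 of these (56.4%) held the core. Among the genes named below as higher in the members, 20 of 23 had windows and 5 of 25 windows (20%) held an AP-1 site, those of F3, Il1a, Mmp12, Mmp13 and Tnfrsf9. The core was in 4 of these 25 windows (16%) and in 4 of 22 windows (18.2%) of the inflammatory genes, near the share of all windows. An NF-kB motif was in 5.001% of all windows and in 6 of 22 (27.3%) of the inflammatory genes, and a CEBP site (TTGCGCAA or TTGCAACA) in 0.779% and 2 of 22. A match is a description of letters and shows no binding.

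The members were chosen by the measured UMIs of the score genes, Lyz2, C1q and the excluded genes, so the levels of these describe the choice. Inhba (chromosome 13, 16011851 to 16031621) stood at 708 and 403 CPM in the members, against 5.42 and 2.75 CPM in monocytes. Egln3 was at 493 and 368 CPM, Pdpn at 259 and 223 CPM and Slc7a2 (chromosome 8, 40862396 to 40922308) at 477 and 272 CPM. Of members thinned to 5000 UMIs, Slc7a2 was found in 56.5% and 32.1% and Inhba in 48.6% and 35.5%, where T cells, which should lack them, gave 1.20% and 0.503% for Slc7a2 and 0.915% and 0.352% for Inhba. Thinning kept 418 and 234 members and left out 12 and 3. Before thinning, the members' shares were 70.0% and 42.6% for Slc7a2 and 56.7% and 40.9% for Inhba.

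The 2 markers given with the score but not used in it, Thbs1 and Nos2, were higher in the members than in both other sets. They came with the rule as markers, and both other sets have a score under 5. Their direction is therefore not independent of the choice of cells. Thbs1 (chromosome 2, 118111876 to 118127133) encodes thrombospondin, a matrix protein that restrains blood vessels. It stood at 1139 and 917 CPM in members, 309 and 299 CPM in monocytes and 159 and 67.6 CPM in C1q macrophages. Nos2 (chromosome 11, 78920787 to 78960254) was at 562 CPM (543 to 581) and 450.3 CPM (429 to 472) in members, 21.8 and 38.8 CPM in monocytes and 83.8 and 96.0 CPM in C1q macrophages. After thinning, Nos2 was found in 51.7% and 47.9% of members and in 1.72% and 1.66% of T cells, whose median depths before thinning were 17524 and 20436 UMIs. Unthinned, 57.2% and 59.9% of members held a UMI of Nos2.

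The labelled cell type of the samples is melanoma, whereas the sort took CD45+ cells, and the members carried phagocyte genes. The summed level of 8 common phagocyte markers, one of which is Lyz2 of the rule, was 7049 and 7344 CPM. Monocyte markers summed to 3413 and 3502 CPM, between those of monocytes (6056 and 6260) and of C1q macrophages (1617 and 1085). Other dendritic cell markers were present, with sums of 273 and 165 CPM for cross-presenting cells, 150.2 and 83.1 CPM for conventional type 2 cells and 631 and 733 CPM for plasmacytoid cells. In the same order, monocytes had sums of 684 and 448, 186 and 217, and 375 and 545 CPM. C1q macrophages had 525 and 407, 163 and 101, and 525 and 637 CPM. Of 5 plasmacytoid markers, 4 and 2 had UMIs in the members. Of 7 fibroblast markers 4 had UMIs, summing to 2.77 and 2.90 CPM. Xcr1 and Clec9a of dendritic cells were at 0 by the rule, the neutrophil genes Camp and Ngp were at 0, and so were the fibroblast genes Dcn, Lum and Pdgfra and the mast cell genes Cpa3, Fcer1a, Ms4a2 and Mcpt8. Neutrophil markers summed to 866 and 831 CPM in members, 382 and 185 CPM in monocytes and 177 and 86.7 CPM in C1q macrophages, and 93.7% and 97.6% of the members' S100a8 UMIs lay in 10 cells of each library. Melanoma markers summed to 54.5 and 1109.8 CPM.

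**Figure D1:**
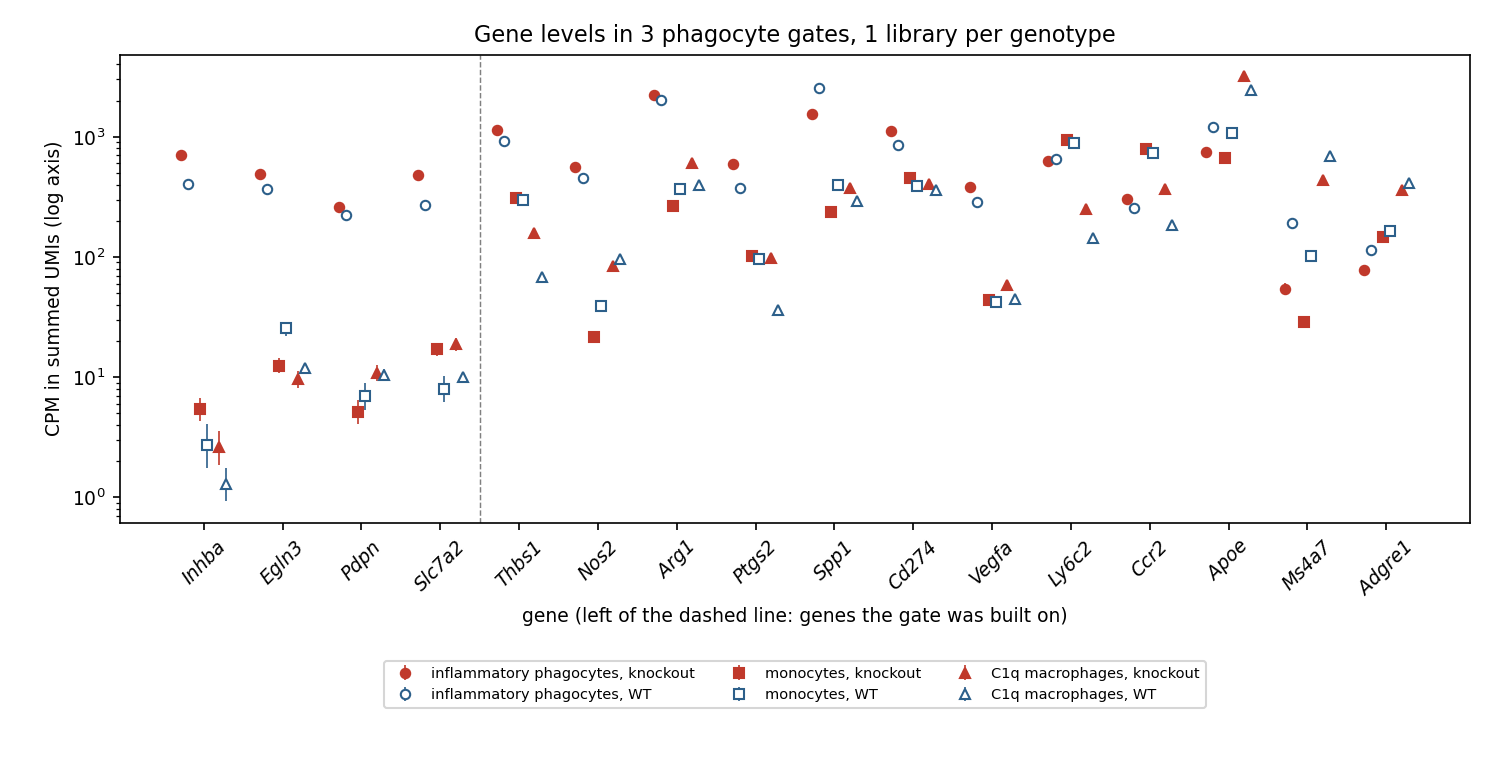
Level of 16 genes in inflammatory phagocytes, monocytes and C1q macrophages of each library, as CPM on a log axis, with bars for the 95% counting interval. Genes left of the dashed line are the score's own, and among the rest Nos2 stands at 562 and 450.3 CPM in the members and under 100 CPM in both other sets of both libraries.

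Of the gene lists, hypoxia and glycolysis gave the largest number of genes above monocytes. Of 27 measured list members, 20 were higher and 0 lower, with a median log2 ratio of 1.48 in the knockout and 1.13 in the WT library. Over all 7843 genes tested 3.97% were higher and 4.39% lower, with medians of -0.25 and -0.16. Against C1q macrophages 17 of 29 were higher and 0 lower, with medians of 1.20 and 1.14, beside 4.67% higher and 7.04% lower among 8068 genes and medians of -0.27 and -0.21. Since Egln3, itself a hypoxia-induced gene, is part of the rule, this direction is not independent of the choice of cells.

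Ero1l, which oxidises proteins in the endoplasmic reticulum, was at 921 and 797 CPM in members, 113 and 135 CPM in monocytes and 132 and 129.5 CPM in C1q macrophages. Hilpda, a lipid droplet protein gene, was at 769 and 787 CPM, against 49.1 and 120.1 CPM in monocytes. Vegfa, the main growth factor of blood vessels, was at 379.7 and 285 CPM, 44.1 and 41.9 CPM, and 58.9 and 44.5 CPM in the 3 sets. Mxi1, which opposes Myc, reached 499 and 427 CPM against 85.0 and 108 CPM in monocytes, and Ndrg1, a hypoxia-induced gene of differentiation, 466 and 297 CPM against 53.9 and 64.9 CPM. For each of these 5 genes the members of both libraries lay above the monocytes of both.

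Genes of glucose uptake and breakdown were among the 20. Slc2a1, the main glucose importer gene, was at 589 and 474 CPM in members, 168 and 179 CPM in monocytes and 143 and 132 CPM in C1q macrophages. Pgk1, a kinase of the pathway, was at 976 and 1260.1 CPM against 349 and 537 CPM in monocytes and 443 and 570.4 CPM in C1q macrophages. Gapdh was at 3186 and 4176 CPM, 2.59-fold and 2.19-fold its monocyte level, and passed the 2-fold limit against monocytes only. Pfkl, Pfkfb3, Pkm, P4ha1 and Pdk1 did not pass against either set. Oxidative phosphorylation genes did not follow: 0 of 20 passed in either direction, with medians of -0.29 and -0.23 against monocytes and -0.40 and -0.36 against C1q macrophages.

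**Figure D2:**
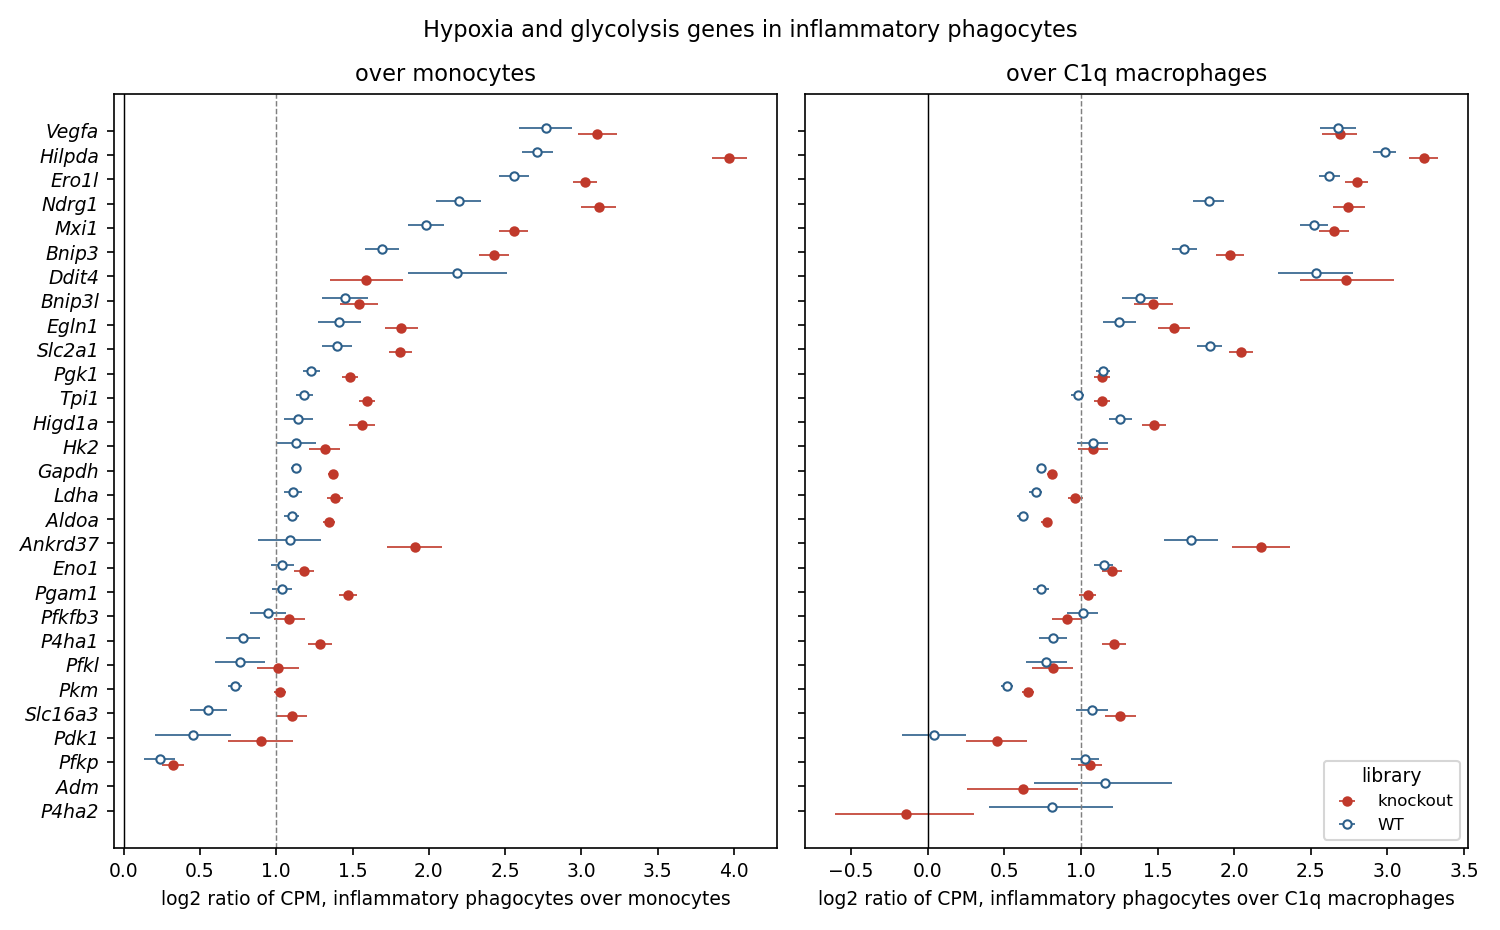
Log2 ratio of hypoxia and glycolysis genes in inflammatory phagocytes over monocytes (left, 27 genes) and over C1q macrophages (right, 29 genes), 1 point per library. The dashed line marks a 2-fold difference, which 20 and 17 genes passed in both libraries.

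The hypoxia genes were spread over the members rather than held by few of them. Per cell, the list made up a median of 165 and 182 UMIs per 10000 in members, 40.6 and 66.6 in monocytes and 58.1 and 82.4 in C1q macrophages. The 5th percentile of members, 67.7 and 76.9, lay above the median monocyte in both libraries. Genes of arginine and amino acid handling had medians of 34.5 and 34.8 in members, 10.1 and 12.7 in monocytes and 10.0 and 11.0 in C1q macrophages. For these genes the members' 5th percentile, 8.35 and 9.12, lay below the median monocyte. MHC class II genes ranged widely among members, with outer quartiles of 15.98 and 139 in the knockout and 14.2 and 113 in the WT library.

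**Figure D3:**
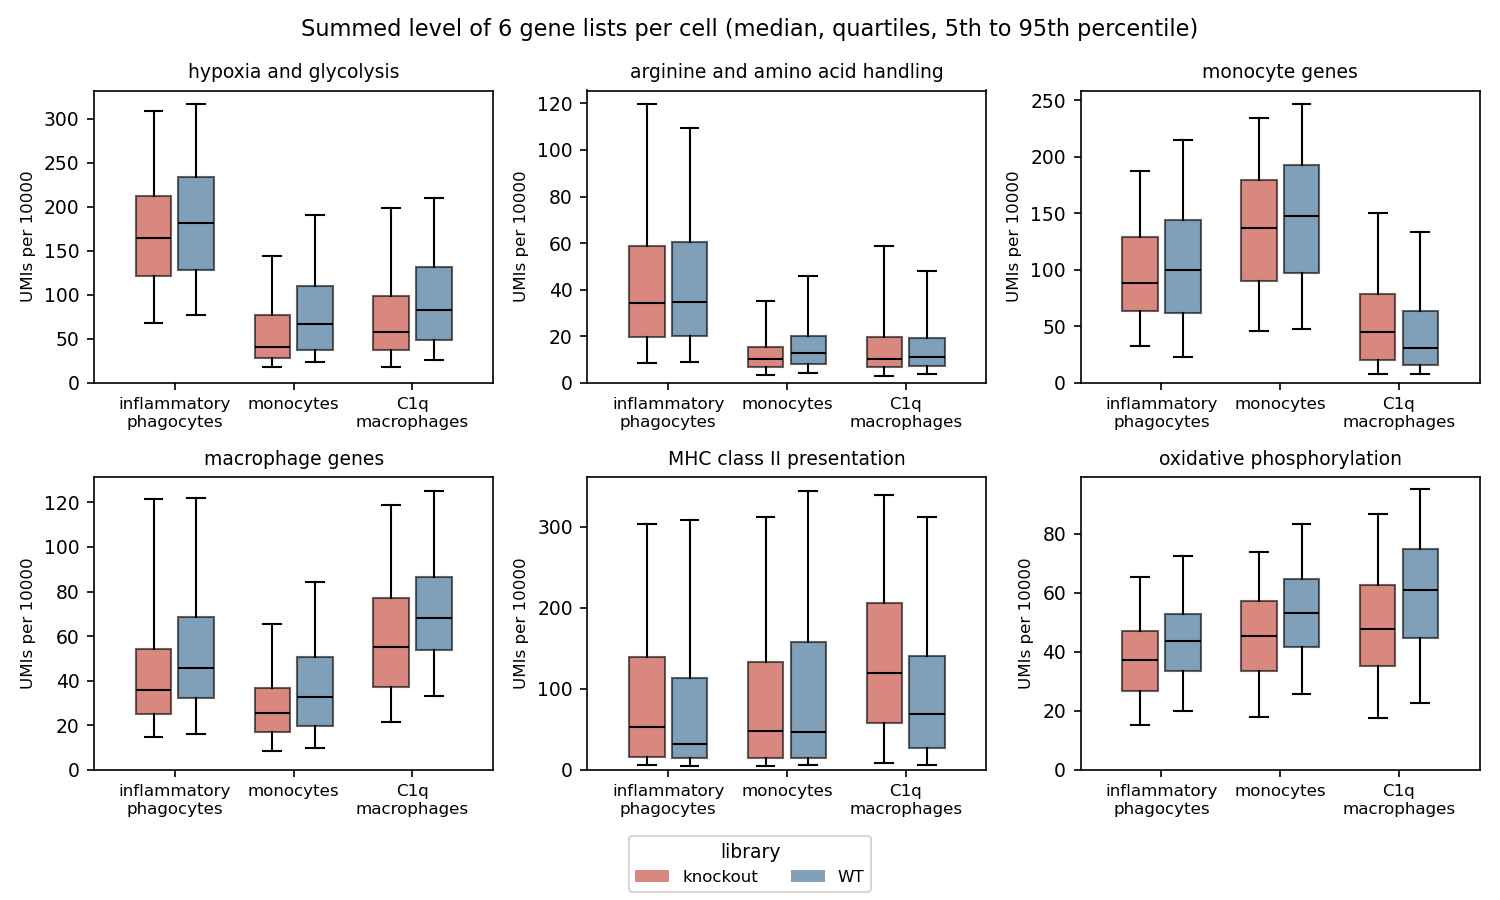
UMIs per 10000 of 6 gene lists in single cells, by set and library, with the median, quartiles and 5th to 95th percentiles. Members sit above both other sets for hypoxia and glycolysis genes (medians 165 and 182) and for arginine and amino acid handling genes. They sit below the monocytes for monocyte genes (87.9 and 99.9 against 137 and 148).

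Inflammatory cytokine and enzyme genes were partly higher. Against monocytes 8 of 19 were higher and 0 lower (medians 1.53 and 0.78), namely Il1a, Il1rn, Nos2, Ptgs2, Ptges, Acod1, Tnfaip3 and Nfkbia. Against C1q macrophages 12 of 19 were higher, and Marcks was lower (medians 1.70 and 1.82). Genes known to respond to tissue digestion moved in the same comparison, with 9 of 18 higher and 0 lower (Fos, Jun, Junb, Egr1, Dusp1, Zfp36, Btg2, Nr4a1 and Atf3, medians 1.02 and 1.07), and 2 of 18 were higher than in monocytes (Dusp1 and Atf3, medians 0.68 and 0.50). Their part in the result was not tested. Il1a, which encodes interleukin 1 alpha, stood at 115 and 64.6 CPM in members, 14.4-fold and 18.2-fold its monocyte level. It was found in 21.9% and 16.5% of members (15.8% and 11.1% after thinning, beside 0.387% and 0.201% of T cells), and 42.7% and 71.9% of its UMIs outside marker-rich cells lay in 10 cells. Il1b was at 1048 and 776 CPM in members and 448 and 572 CPM in monocytes, which did not pass, and at 221 and 112 CPM in C1q macrophages, which did. Il1rn, the gene of the natural interleukin 1 antagonist, was at 715 and 776 CPM, against 177 and 215 CPM in monocytes. Both Il1a and its antagonist's gene were thus higher in the summed members than in monocytes.

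Ptgs2 (chromosome 1, 150100031 to 150108227), which starts prostaglandin synthesis, was at 596 and 376 CPM in members, 102 and 96.9 CPM in monocytes and 97.9 and 36.3 CPM in C1q macrophages. Acod1, which makes itaconate, was at 687 and 645 CPM, against 178 and 206 CPM in monocytes and 170.9 and 171 CPM in C1q macrophages. Tnf was at 294 and 174 CPM in members and 102 and 92.4 CPM in monocytes, a 2-fold difference in the knockout library only. The interleukin 7 receptor gene Il7r was at 401 and 409.7 CPM in members, against 41.4 and 54.5 CPM in monocytes. The decoy receptor gene Il1r2 was at 142 and 71.8 CPM, against 9.56 and 6.86 CPM in C1q macrophages.

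A list of mostly neutrophil-attracting chemokines, which also holds Pf4, followed. Of 4 measured genes 3, Cxcl2, Cxcl3 and Pf4, were higher than in monocytes (medians 3.18 and 2.26). Against C1q macrophages 2 of 4 were higher. Cxcl2 stood at 1036 and 1298 CPM in members, 169.7 and 161 CPM in monocytes and 106 and 47.9 CPM in C1q macrophages. Cxcl3 was at 219 and 239.8 CPM, against 24.3 and 34.1 CPM and 13.1 and 5.70 CPM. Few cells carried Cxcl3: it was found in 17.9% and 18.6% of members (15.8% and 15.4% after thinning, beside 0.669% and 0.252% of T cells), and 54.9% and 78.7% of its UMIs outside marker-rich cells lay in 10 cells. Of other chemokines 3 of 14 were higher than in monocytes, Ccl3, Ccl4 and Ccl9. Cxcl9, which draws T cells, was lower than in C1q macrophages, at 323 and 258 CPM against 1148 and 846 CPM. Ccl8, a chemokine gene of tissue macrophages, was at 41.9 and 126 CPM against 1165 and 1723 CPM.

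Of the genes of arginine and amino acid handling, Arg1, Nos2 and Slc7a11 were higher in the members than in both other sets. Phagocytes of high score that are rich in C1q, though, had Nos2 at 573 and 490.4 CPM and Arg1 at 2104 and 1737 CPM. Arg1 (chromosome 10, 24915221 to 24927484) was at 2230.1 and 2043 CPM in members, 264 and 364 CPM in monocytes and 603 and 396 CPM in C1q macrophages. After thinning it was found in 64.4% and 60.7% of members and in 4.36% and 3.22% of T cells. Of 13 measured genes 5 were higher than in monocytes (Arg1, Nos2, Slc7a11, Odc1 and Gclm) and 5 higher than in C1q macrophages (Arg1, Nos2, Slc7a11, Ass1 and Gch1), with 0 lower. Slc7a11, the cystine importer gene, was at 197 and 172 CPM, against 25.4 and 29.2 CPM in monocytes. Arg2, the mitochondrial arginase gene, was at 89.8 and 74.7 CPM, against 7.48 and 5.79 CPM in C1q macrophages. The other cationic amino acid transporter on the list, Slc7a1, was at 17.3 and 21.1 CPM in members and 40.3 and 32.1 CPM in monocytes.

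Of 21 matrix, adhesion and coagulation genes, 7 were higher than in monocytes and 1, Vcan, lower, while 10 were higher than in C1q macrophages. Mmp12 stood first by the rule for named genes, at 674 and 607 CPM against 30.8 and 13.6 CPM in monocytes, a ratio of 21.9 and 44.5. The collagenase gene Mmp13 was at 109.6 and 93.4 CPM, against 8.20 and 8.24 CPM in monocytes. Mmp12 was found in 36.7% and 32.9% of members and Mmp13 in 16.3% and 21.5%. Outside marker-rich cells 10 cells held 38.5% and 59.6% of the Mmp12 UMIs and 56.1% and 71.4% of those of Mmp13. Spp1 (chromosome 5, 104435118 to 104441050), which encodes osteopontin, was at 1554 and 2538 CPM, 236 and 396 CPM in monocytes and 375 and 294 CPM in C1q macrophages. F3, the tissue factor gene that starts coagulation, was at 31.0 and 41.9 CPM, against 6.85 and 4.47 CPM in monocytes, and 10 cells held 57.3% and 77.4% of its UMIs outside marker-rich cells. F10, the gene of the coagulation factor it activates, was at 679 and 507 CPM, 295 and 292 CPM in monocytes and 109 and 58.8 CPM in C1q macrophages.

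The rule named other genes as well. Against monocytes these included Cd200 (37.2 and 45.6 CPM against 1.83 and 1.26 CPM), a ligand that restrains myeloid cells, and the costimulatory receptor gene Tnfrsf9 (86.4 and 121 CPM against 9.36 and 11.5 CPM). Outside marker-rich cells 10 cells held 47.5% and 77.9% of the Tnfrsf9 UMIs. Atp6v0d2, a subunit gene of the vacuolar proton pump, Ctsk, which encodes cathepsin K, the Notch ligand gene Jag1 and the syndecan gene Sdc1 were on the same list. The transcription factor gene Dach1 was at 63.9 and 85.5 CPM, against 4.68 and 3.44 CPM in monocytes and 2.69 and 1.42 CPM in C1q macrophages. Dach1 was found in 15.6% and 19.4% of members, and 10 cells held 50.3% and 57.7% of its UMIs outside marker-rich cells. Slpi, a secreted protease inhibitor gene, was at 211 and 226 CPM, against 12.5 and 10.04 CPM in C1q macrophages. Marker-rich cells were then left out of the members and of both other sets. After that, 30 of 30 higher and 16 of 16 lower entries of both comparisons remained at least 2-fold apart in both libraries. The entries had been picked for large ratios in these data, so few could have fallen below 2-fold.

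Genes lower than in monocytes included genes of patrolling monocytes. The adhesion receptor gene Adgre4 was at 10.4 and 7.39 CPM in members and 89.8 and 78.0 CPM in monocytes. Ace, which encodes angiotensin-converting enzyme, was at 4.85 and 4.22 CPM, against 39.7 and 34.0 CPM. Genes lower than in C1q macrophages included Cbr2, at 1.90 and 3.69 CPM against 54.5 and 70.5 CPM, which marks tissue-resident macrophages.

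Lipid-associated macrophage genes split between the comparisons. Against monocytes 11 of 18 were higher (medians 1.65 and 1.17), against C1q macrophages 4 were higher and 3 lower (medians 0.11 and 0.45). Those above both sets were Spp1, Gpnmb, Cd9 and Plin2. Plin2, the lipid droplet coat gene, was at 948 and 1261 CPM in members, 311 and 521 CPM in monocytes and 422 and 587 CPM in C1q macrophages. Trem2, a lipid receptor gene, was lower than in C1q macrophages, at 70.8 and 112 CPM against 183 and 232 CPM, and so was Apoe, at 744 and 1198 CPM against 3183 and 2434 CPM. Lipid storage and uptake genes were higher for 7 of 16 against monocytes, with 1, Lipe, lower.

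Iron genes were higher than in monocytes for 7 of 16 and lower for 0 (medians 1.02 and 0.79), and higher than in C1q macrophages for 3. Hmox1, the haem oxygenase gene, was at 1346 and 1548 CPM in members, 189.6 and 351 CPM in monocytes and 725 and 789.8 CPM in C1q macrophages. Fth1, the ferritin heavy chain gene, was at 23627 and 24682 CPM, against 3940.2 and 6023 CPM in monocytes and 9668 and 11777 CPM in C1q macrophages. Gpx4, which guards against lipid peroxidation, was at 177 and 269 CPM and passed in neither comparison.

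On the axis from monocyte to macrophage the members lay between the other sets, with exceptions. Ly6c2, a monocyte surface gene, was at 624 and 659 CPM in members, 943 and 882 CPM in monocytes and 248 and 143 CPM in C1q macrophages. Ccr2, the receptor by which monocytes enter tissue, was lower than in monocytes, at 301 and 254 CPM against 792 and 727 CPM. Of 19 monocyte genes 8 were lower and 2 higher than in monocytes (medians -1.04 and -0.97), and 11 of 17 were higher than in C1q macrophages. The 2 higher were Cd14, the lipopolysaccharide co-receptor gene, at 565 and 568 CPM against 135 and 159 CPM, and F13a1, at 785 and 811 CPM against 319.9 and 385 CPM. Part of the monocyte gate is Ly6c2 and Ccr2, so their levels there were set by that choice.

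Of 18 macrophage genes 3 were higher than in monocytes (Cd63, Slc40a1 and Hmox1) and 8 lower than in C1q macrophages. Adgre1, the gene of F4/80, was at 78.2 and 114 CPM in members, 147 and 164 CPM in monocytes and 361 and 409.8 CPM in C1q macrophages. Ms4a7, a gene of mature macrophages, was at 54.5 and 192 CPM, 29.0 and 102 CPM, and 439 and 694 CPM. Cell cycle genes were lower than in C1q macrophages for 16 of 19 (medians -2.79 and -1.66) and passed against monocytes for 0 of 11.

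Genes of antigen presentation, checkpoint ligands and innate receptors were mixed. Of 11 MHC class II presentation genes, 1, Ciita, was lower than in monocytes, and the costimulatory ligand genes Cd86 and Cd80 were higher than in C1q macrophages. H2-Aa was at 1992 and 1521 CPM in members, 1726 and 2037 CPM in monocytes and 2499 and 1745 CPM in C1q macrophages. Cd274, which encodes PD-L1, was higher than in both sets, at 1126 and 853 CPM against 454 and 391 CPM and 403 and 358 CPM. Of the receptor list 4 of 21 were higher and 1 lower than in monocytes, and 7 of 20 higher than in C1q macrophages. Clec4e, a receptor gene for dead cells and microbes, was at 585 and 662 CPM, 139.5 and 197 CPM in monocytes and 75.6 and 54.2 CPM in C1q macrophages. Of 14 suppressive macrophage genes, Arg1 and Cd274 were higher than in monocytes and Chil3 lower. Against C1q macrophages Arg1, Cd274 and Chil3 were higher and Mrc1, Retnla, Stab1 and Folr2 lower (medians -0.17 and -0.38).

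Among transcription factors, Bhlhe40, a basic helix-loop-helix repressor, was higher than in both sets, at 217 and 174 CPM against 60.1 and 61.5 CPM and 41.7 and 31.4 CPM. Hif1a, the oxygen-regulated subunit of HIF-1, was at 523 and 399 CPM in members, 374 and 264 CPM in monocytes and 227 and 135 CPM in C1q macrophages, and Cebpb was at 1663 and 1384 CPM, 1173 and 1012 CPM, and 774 and 523 CPM. Both passed against C1q macrophages only. Of 22 factors 1 was higher and 2 lower than in monocytes. Of 17 interferon-induced genes 1, Rsad2, was higher than in monocytes (medians -0.37 and -0.17). Against C1q macrophages Isg15 and Rsad2 were higher and Iigp1 lower, with medians of 0.40 and 0.46.

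Besides Inhba, 12 genes of the activin and TGF-beta pathway were measured. Of these 0 were higher and 1 lower than in monocytes, near the 3.97% higher and 4.39% lower among all genes. The lower one was the activin receptor gene Acvr2a, at 69.1 and 50.1 CPM against 159.7 and 107 CPM. Smad7, the pathway's feedback inhibitor, was at 59.7 and 44.1 CPM, 33.6 and 32.1 CPM in monocytes and 24.9 and 20.1 CPM in C1q macrophages. Tgfbr2 was lower than in C1q macrophages, at 44.7 and 46.4 CPM against 134 and 141 CPM. The activin antagonist gene Fst had 0 UMIs in the members of both libraries.

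Members differed widely among themselves. The score had quartiles of 9, 16 and 33 UMIs in the knockout library and 7, 11 and 22 UMIs in the WT library, with maxima of 166 and 189. All 4 score genes were found in 80 and 27 members and a single one in 83 and 60. Egln3 alone gave over 50% of the score in 30.5% and 40.1% of members, Inhba in 24.0% and 22.8%, Slc7a2 in 20.2% and 13.9% and Pdpn in 9.53% and 16.03%. Nos2 and Arg1 were found together in 37.6% and 30.3% of thinned members, Nos2 alone in 14.1% and 17.5%, Arg1 alone in 26.8% and 30.3% and neither in 21.5% and 21.8%. A UMI of both genes thus marked a minority of members in each library.

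Cells of score 5 to 9, 10 to 19 and at least 20 numbered 128, 116 and 186 in the knockout library and 96, 70 and 71 in the WT library, with median UMIs of 10464.5, 10906 and 14471, and of 11067.5, 13469.5 and 15636. The score is not scaled to depth, so the bands differ in both. Nos2 was at 217, 382 and 812 CPM in the 3 bands of the knockout and at 259.6, 266 and 844 CPM in those of the WT library. Ero1l went from 561 to 1217 CPM and from 600.5 to 1193 CPM between the lowest and the highest band, and Mmp12 from 305 to 789 CPM and from 168 to 1210.4 CPM. Ccr2 went the other way, from 385 to 216 CPM and from 350.0 to 190.4 CPM. The neutrophil gene S100a8 had no common order, at 840.1, 328 and 16.6 CPM in the knockout and 291, 7.999 and 478 CPM in the WT library.

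At the limit of the score, 28 and 32 members had exactly 5 UMIs and 51 and 39 phagocytes just outside had exactly 4. Nos2 stood at 132 and 426 CPM inside and 109 and 274 CPM outside, Arg1 at 1812 and 1587 CPM inside and 834 and 1759 CPM outside, and Ero1l at 422 and 525 CPM inside and 199 and 429.9 CPM outside. In the WT library Arg1 was thus higher just outside the limit than just inside it. A UMI of Ly6c2 was present in 326 (75.8%) and 193 (81.4%) of members. In the 104 and 44 members without one, H2-Aa was at 2647 and 2127 CPM, against 1790 and 1391 CPM in those with one. In the same order, Hmox1 was at 2131 and 2407 CPM against 1104 and 1365 CPM, and Cxcl3 at 337 and 708 CPM against 182 and 139.6 CPM. S100a8, at 861 and 560.1 CPM against 118 and 193 CPM, moved with that split, and its part in the result was not tested.

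The share of members differed between the libraries. Of kept barcodes, 3.83% (3.48 to 4.20) of the knockout and 2.64% (2.32 to 2.99) of the WT library were members, and the shares stood in a ratio of 1.45 (1.23 to 1.71). Of Lyz2 phagocytes they were 12.8% (11.6 to 13.9) and 8.14% (7.18 to 9.20), a ratio of 1.57 (1.33 to 1.84). Monocytes had a ratio of 1.72 (1.56 to 1.89) on that basis and C1q macrophages one of 0.560 (0.514 to 0.610). With cells thinned to 5000 UMIs before the gate the ratio for members was 1.90. With members that held at least 2 UMIs of other types left out it was 3.97, from 262 and 57 cells. Such cells were taken from the members only, and the Lyz2 phagocytes they were divided by stayed whole. Melanoma genes count among the other types, and in T cells they summed to 23.4 and 394.9 CPM. How far melanoma RNA of each library entered this ratio was not tested.

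The score alone gave shares near each other. Phagocytes with a score of at least 5, with no limit on C1q, numbered 782 and 678, which is 23.2% and 23.3% of Lyz2 phagocytes, a ratio of 0.995 (0.897 to 1.10). Of kept barcodes they were 6.96% and 7.55%, a ratio of 0.921 (0.830 to 1.02). The libraries differed in how these cells fell on the 2 sides of the C1q limit: 55.0% and 35.0% of them were members (ratio 1.57, 1.34 to 1.85). The remaining 352 and 441 were score-high cells rich in C1q. Phagocytes with a low score were divided in a like way, 65.7% and 38.7% of them being low in C1q (ratio 1.70, 1.56 to 1.85). The larger share of members in the knockout library thus came with a larger share of C1q-low cells among phagocytes of low and high score alike.

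C1q in the members was low enough that free RNA counts in it. Members with no C1q UMI were 40.9% in the knockout and 16.9% in the WT library, and those with 5 to under 10 per 10000 were 7.91% and 15.6%. C1qa stood at 36.5 and 57.0 CPM in members, at 16.7 and 41.3 CPM in T cells, which do not make it, and at 2404 and 3223 CPM in C1q macrophages. By estimate, free RNA accounted for 49.0% and 73.8% of the members' C1qa UMIs. Its profile came from barcodes of at most 100 UMIs, but its amount was set by the C1q UMIs of the T cells. The estimate takes members to hold the same fraction of free RNA as T cells, so it is not separate from the T cell levels. Its part in the C1q split was not tested. Just inside the limit, at 5 to under 10, the 34 and 37 members had Ms4a7 at 88.1 and 148 CPM and Nos2 at 733 and 484 CPM. Just outside, at 10 to under 15, the 41 and 22 cells had Ms4a7 at 169 and 243 CPM and Nos2 at 402 and 429.8 CPM.

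Within the members, 357 of 7598 genes (4.7%) were at least 1.5-fold higher in the knockout library and 550 (7.24%) lower. The lower side was led by Dct, at 24.2 and 638 CPM, followed by Prkg1, Pmel, Mlana, Ptgds, Cited1, Tyrp1, Nedd4, Slc24a5, Tyr, Gstp1 and Top2a. Dct, Pmel, Mlana, Tyrp1, Slc24a5 and Tyr are pigment genes. For each of these 12, between 79.0% and 98.2% of the WT UMIs lay in 10 cells. Without the marker-rich cells 411 and 225 members remained, and 440 of 7350 genes (5.99%) were higher and 249 (3.39%) lower. Top2a then stood at a log2 ratio of 0.29 in place of -2.49, and the median of the cell cycle genes at 0.19 in place of -1.46. Pigment genes stayed lower, with Dct at -1.90 (-2.22 to -1.59), Pmel at -2.11 and Mlana at -1.60. Tyrp1 was then at -1.45, Slc24a5 at -1.13 and Tyr at -0.96. Dct was found in 21.9% and 62.0% of all members, and melanoma markers summed to 23.4 and 394.9 CPM in T cells. The source of this melanoma RNA was not tested. Values below are without the marker-rich cells where this is said.

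The checkpoint ligand gene Pdcd1lg2, which encodes PD-L2, was among the genes higher in the knockout library. It lies on chromosome 19 from 29410919 to 29471161 and stood at 109 and 34.6 CPM, a log2 ratio of 1.66 (1.39 to 1.94), and of 1.60 (1.32 to 1.90) without the marker-rich cells. It was higher in monocytes (0.91) and C1q macrophages (1.34) too. After thinning, a UMI was found in 22.5% and 10.3% of members (37.4% and 18.99% before). T cells gave 14.7% and 14.8%, and the WT members' share was below theirs. By estimate, free RNA gave 1.68% of the knockout members' UMIs of this gene. Whether T cells made its RNA themselves was not tested, so their share is not used as a floor here. Osm, the gene of the cytokine oncostatin M, was at 154 and 58.6 CPM, 1.40 with all members and 1.44 without the marker-rich cells, beside 0.43 in monocytes and 1.39 in C1q macrophages. Cish, a feedback inhibitor gene of cytokine signals, was at 46.6 and 10.8 CPM, a log2 ratio of 2.11, with 1.74 in monocytes and 1.70 in C1q macrophages. Whether any of these ratios differed between the sets of cells was not tested.

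The genes Fgf13, St7, Spint1, Htr7, Mpp7 and Jaml were named on the higher side with all members and without the marker-rich cells. For Fgf13 and Jaml the WT UMIs left without the marker-rich cells all (100%) lay in 10 cells. St7 was at 156 and 45.9 CPM and Htr7, a serotonin receptor gene, at 129 and 46.2 CPM. Gzmb, which encodes the cytotoxic protease granzyme B, had 77.8% of its knockout UMIs in 10 cells, and its log2 ratio of 1.65 was -0.25 without the marker-rich cells. Without these, Il1r2 joined at 106 and 38.0 CPM, but 57.5% and 74.6% of its UMIs lay in 10 cells of each library.

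Several inflammatory genes were higher in the knockout members: 5 of 20 (Il1a, Il6, Tnf, Osm and Ptgs2), with 2 lower (Ptges and Saa3) and a list median of 0.23, beside -0.01 over all genes. The same 5 and 2 genes passed without the marker-rich cells, where the median was 0.13 and that of all genes 0.04. Ptgs2, at 596 and 376 CPM, had a log2 ratio of 0.66 and of 0.72 without them. Il1b was at 1048 and 776 CPM, a log2 ratio of 0.43, and did not pass. Of the receptors 6 of 22 were higher with all members and 4 without the marker-rich cells: Pdcd1lg2, Trem1, Tlr2 and the oxidised lipid receptor gene Olr1. Olr1 was at 120.1 and 57.2 CPM, a log2 ratio of 1.07, but of -0.11 where cells were thinned before the gate.

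On the lower side without the marker-rich cells stood genes of mature and resident macrophages. Ms4a7 was at 56.1 and 210.4 CPM, a log2 ratio of -1.91 (-2.10 to -1.71), with 43.0% of the WT UMIs in 10 cells. Selenop, a selenium transport gene, was at 24.6 and 67.8 CPM, a log2 ratio of -1.46. Ccl8 was at 42.5 and 142 CPM, -1.74, and Folr2, a marker gene of resident macrophages, at 10.8 and 33.2 CPM. Of 18 macrophage genes 7 were lower and 0 higher, with a median of -0.44. Hdac9, at 31.5 and 151 CPM, had 64.4% of its WT UMIs in 10 cells, and Procr, at 17.8 and 60.0 CPM, 80.9%.

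Lipid-associated macrophage genes were lower for 6 of 18 with all members (median -0.49) and for 8 of 18 without the marker-rich cells (median -0.57), with 0 higher either way. Spp1 was at 1554 and 2538 CPM, a log2 ratio of -0.71, and of -0.87 without them. Apoe was at 744 and 1198 CPM, -0.69 and -0.73. The fatty acid binding protein gene Fabp4 was at 30.5 and 70.2 CPM, with 76.2% of its remaining WT UMIs in 10 cells. In monocytes 9 of 17 genes of this list were lower (median -0.60) and in C1q macrophages 3 of 18 (median -0.37), beside 2.95% and 2.15% of all genes in those sets (higher 3.33% and 4.56%). With the estimated free RNA subtracted, the members' median over all members was -0.48 in place of -0.49. The part of free RNA in the ratios of monocytes and C1q macrophages was not tested.

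**Figure D4:**
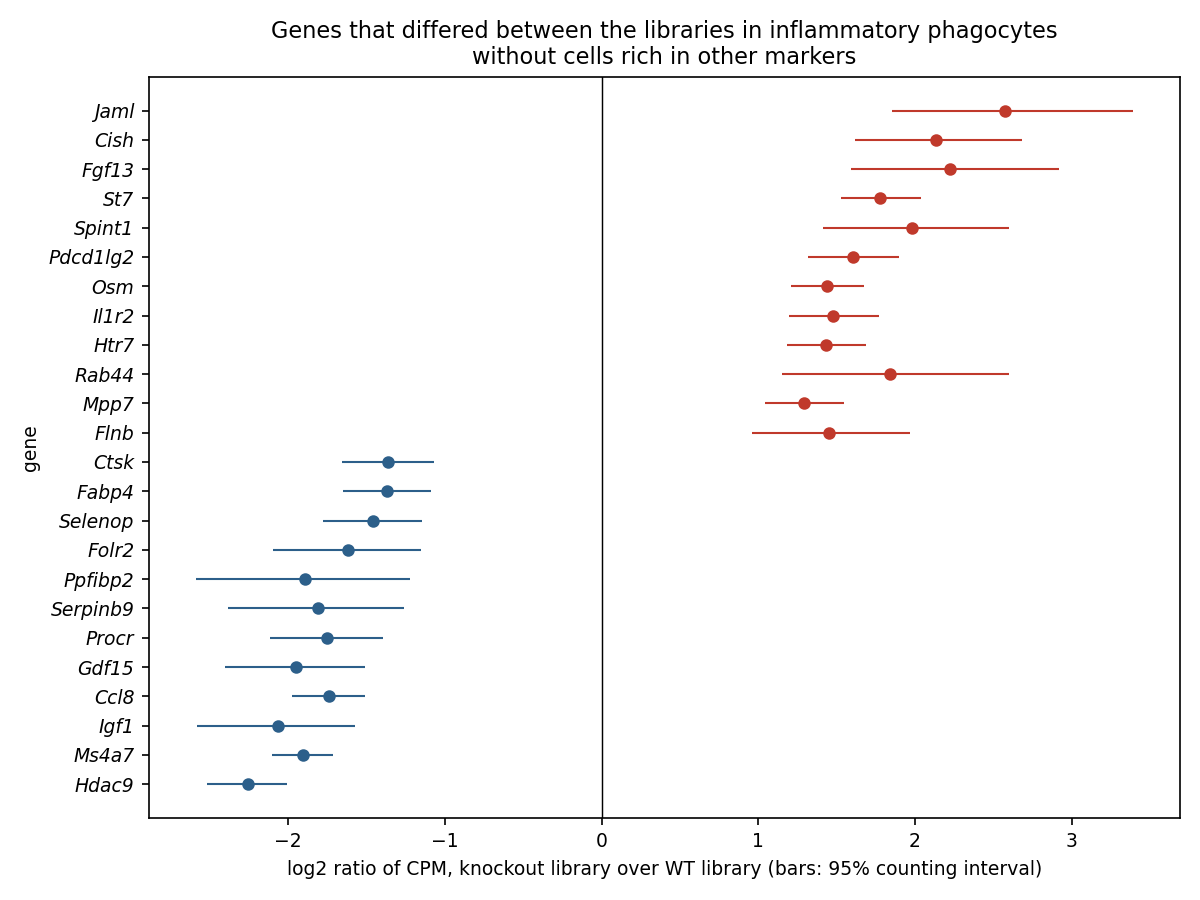
Log2 ratio of knockout over WT of the 24 genes named by the rule in inflammatory phagocytes without marker-rich cells, with 95% counting intervals. Jaml stands at 2.58 and Pdcd1lg2 at 1.60 on the higher side, and Hdac9 at -2.26 and Ms4a7 at -1.91 on the lower.

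Of hypoxia and glycolysis genes, 27 of 29 lay within 1.5-fold between the libraries in the members, with a median of -0.05. Ndrg1 passed upward, at 466 and 297 CPM, and P4ha2 downward, at 9.87 and 16.9 CPM. Without the marker-rich cells Ndrg1 no longer passed, and 0 genes were higher and 1, P4ha2, lower. In monocytes the same list had a median of -0.38, with 6 of 27 genes lower (Bnip3, Ankrd37, Tpi1, Gapdh, Pgk1 and Hilpda) and 0 higher, and in C1q macrophages one of -0.25 with 0 of 27 past the limit. Hilpda, for one, was at 769 and 787 CPM in members but at 49.1 and 120.1 CPM in monocytes. Whether the list's ratio differed between the sets was not tested.

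Nos2 and Arg1 did not pass 1.5-fold between the libraries in the members. The log2 ratio of Nos2 was 0.32 (0.23 to 0.40), or 0.21 without the marker-rich cells. That of Arg1 was 0.13 (0.09 to 0.17), or 0.0072 without those cells. Thbs1 stood at 0.31 (0.25 to 0.37) and Vegfa at 0.41 (0.31 to 0.52). Each of these is an interval for counting error and does not cover the spread between tumours.

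Of MHC class II presentation genes 1 of 11, Cd80, was past 1.5-fold in the knockout members, beside 4.7% of all genes, with a list median of 0.41, or 0.29 and 2 of 11, Cd80 and Ciita, without the marker-rich cells. Cd80 was at 127 and 66.7 CPM. In C1q macrophages this list had a median of 0.48 with 3 of 10 genes past the limit, and in monocytes one of -0.07 with 1. Oxidative phosphorylation genes had a median of -0.31 in the members, -0.17 without the marker-rich cells, -0.28 in monocytes and -0.30 in C1q macrophages. Transcription factor genes were higher for Nfkb1, Tfec and Runx1 and lower for Pparg and Nr1h3, of 22 measured, with and without those cells. Maff passed too with all members, at 27.9 and 18.2 CPM, but not without the marker-rich cells. Nfkb1, an NF-kB subunit gene, was at 407 and 209 CPM, and Pparg, a lipid-sensing receptor gene, at 23.2 and 49.9 CPM. Interferon-induced and monocyte genes passed for 0 of 17 each, with medians of 0.09 and 0.0026.

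**Figure D5:**
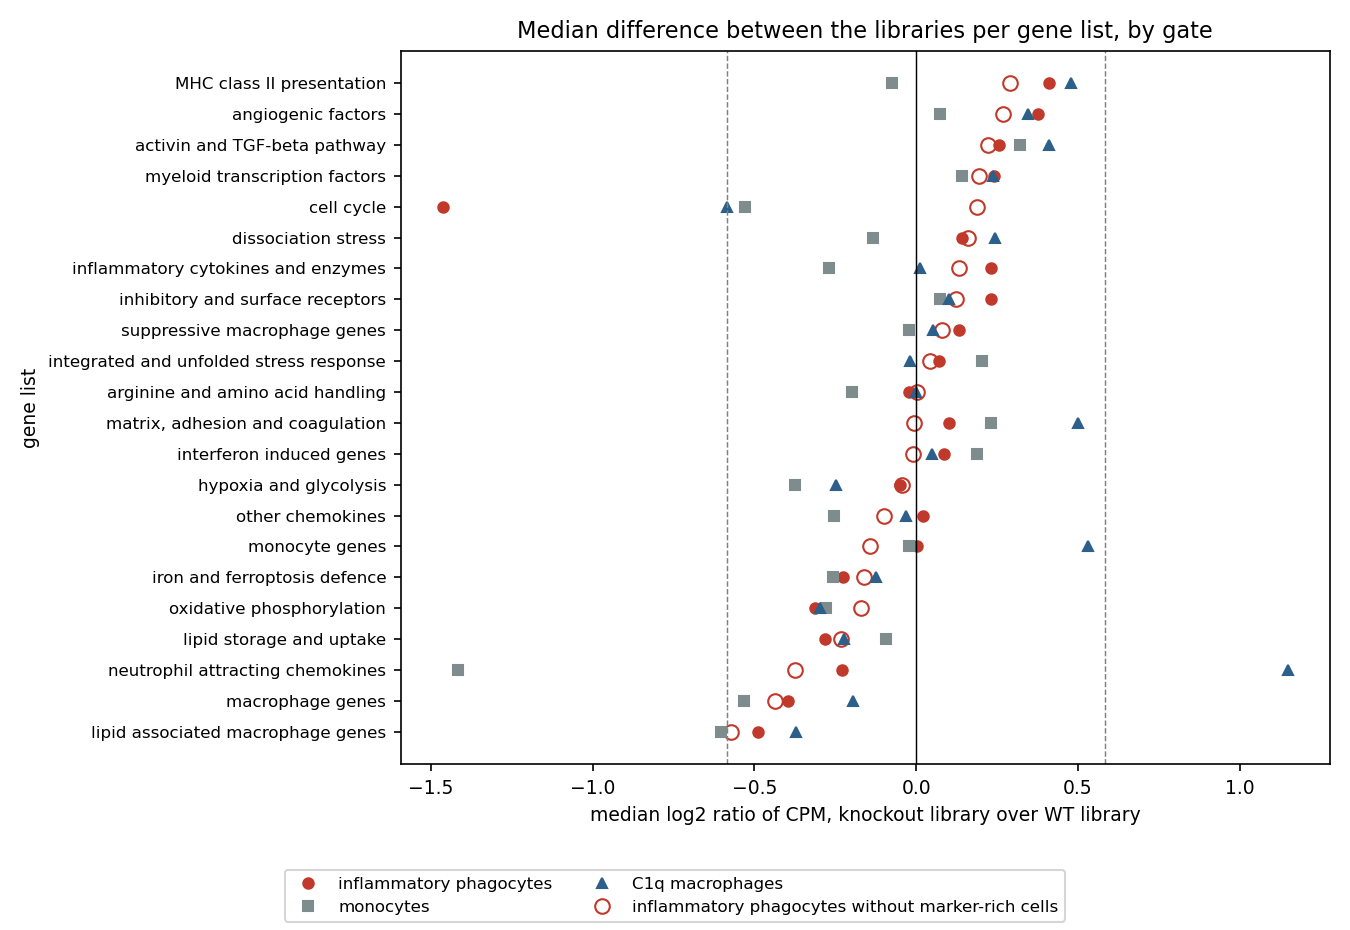
Median log2 ratio of knockout over WT of each gene list in inflammatory phagocytes, in the same cells without marker-rich ones, in monocytes and in C1q macrophages. Dashed lines mark 1.5-fold. The members' cell cycle point moves from -1.46 to 0.19 without marker-rich cells, while the lipid-associated list stays below 0 in all 4 sets.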

How the data were processed

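The authors deposited 1 raw count matrix per library (Cell Ranger 7.2.0 per the file headers, mm10 per the submitters' processing notes), with 202946827 and 235652476 UMIs over 32285 genes. Kept barcodes had at least 1000 UMIs, 300 genes and at most 10% mitochondrial UMIs. The members and gene lists were chosen with earlier results of these data known. UMIs were summed per set of cells and library and scaled to CPM, with exact Poisson, Clopper-Pearson and conditional ratio intervals (95%). With 1 library a group there was no test, and no p-value is given. Genes needed a mean of 10 CPM and, between libraries, 50 UMIs together. Named genes, without mitochondrial, ribosomal, haemoglobin, antigen receptor, predicted, sex-linked marker and rule genes, had a UMI in at least 10% of members of the higher library. Between libraries they were the 12 each way whose interval bound lay furthest from no change, with under 25% free RNA. Against the other sets they were 15 higher and 8 lower by the smaller log2 ratio of both libraries. Other genes are described as members of the lists. Doublets were left in. Scrublet (scanpy 1.11.5) marked 335 (2.98%) and 177 (1.97%) of kept cells, 8 and 2 of them members, and leaving these out was an alternative. Others were the score, C1q, depth and mitochondrial limits, thinning, scaling and the expression filter. Poisson counts, the model that the intervals assume, were simulated for 7564 genes in the comparison of libraries in members. Of the unchanged genes 95.9% had intervals that held no change. Intervals excluded no change for 91% of 100 genes changed 1.5-fold and 98% of 100 changed 2-fold. The simulation holds no spread between cells or tumours, so it checks the calculation and not how well the intervals fit these data. Work used Python 3.11.15, numpy 2.4.6, scipy 1.17.1, pandas 2.3.3 and matplotlib 3.10.9. Positions came from GENCODE M21.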

Additional observations from a re-analysis of the deposited data

How the results depend on the processing

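No paired analysis was possible because each group is 1 library, and no replicate could be left out. The share of members was higher in the knockout library under every alternative run, with ratios of 1.32 to 3.67 of kept barcodes and 1.43 to 3.97 of phagocytes. These ratios were 1.71 and 1.85 with a score of at least 10, 1.93 and 1.90 with cells thinned before the gate, and 3.67 and 3.97 without cells holding at least 2 UMIs of other types. For 3.67 and 3.97 such cells, melanoma UMIs included, were left out of the members but not of the kept barcodes or phagocytes. With score and Lyz2 per 10000 UMIs the ratio of kept barcodes was 1.75. Genes lower in knockout members numbered 332 with a score of at least 3, 282 per 10000 UMIs, 206 thinned, 262 with each cell weighted alike, 169 at a mean of 30 CPM, 872 with no filter and 249 without marker-rich cells, against 550. Higher genes numbered 547 thinned, 1029 without cells holding other UMIs and 180 at a mean of 30 CPM, against 357. The cell cycle median was -0.33 with a score of at least 3, -0.076 per 10000 UMIs, -0.19 thinned, -0.23 without cells holding other UMIs, -0.20 with cells weighted alike, -0.71 at 30 CPM and 0.19 without marker-rich cells. The MHC class II median was 0.23 with a score of at least 10, 0.27 thinned, 0.26 without cells holding other UMIs and 0.27 with cells weighted alike. The hypoxia median between libraries was -0.15 with a score of at least 3 and 0.10 without cells holding other UMIs. The lipid-associated median was -0.40 thinned and -0.57 without marker-rich cells, and the macrophage median -0.53 with C1q under 5. Against C1q macrophages the hypoxia median was 1.08 and 1.02 with a score of at least 10, and in the knockout library 1.03 per 10000 UMIs and 1.31 without cells holding other UMIs. Centred on the median gene, the hypoxia medians were 1.73 and 1.29 against monocytes and 1.48 and 1.35 against C1q macrophages, with 203 and 352 genes lower. At a mean of 30 CPM, 205 genes were higher and 202 lower than in monocytes and 227 lower than in C1q macrophages. Single genes reversed as follows: Tyrp1 0.23 with a score of at least 3; Prkg1 0.062 per 10000 UMIs, 0.14 without cells holding other UMIs and 0.085 without marker-rich cells; Tyr 1.57 and Olr1 -0.11 thinned, and Tyr 0.32 without cells holding other UMIs. Gzmb was -0.45 with C1q under 5, -0.25 without Scrublet-marked cells, -0.53 without cells holding other UMIs and -0.25 without marker-rich cells, and Top2a 0.29 without marker-rich cells. The causes were not tested. Of all 629 values of single genes, with the 12 reversed ones among them, 423 stayed within the reported counting interval. Of 552 list medians outside the main lists, 436 moved by no more than the median error of their genes' intervals.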

Other observations

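The phagocytes with a score of at least 5 that were rich in C1q, 352 in the knockout and 441 in the WT library, carried part of the members' genes. Nos2 stood at 573 and 490.4 CPM in them and Arg1 at 2104 and 1737 CPM, close to the members' 562 and 450.3 CPM and 2230.1 and 2043 CPM. Ero1l was at 545 and 476 CPM and Hilpda at 508 and 529 CPM, below the members' 921 and 797 CPM and 769 and 787 CPM. Inhba was at 208 and 80.3 CPM. Ms4a7 was at 252 and 421 CPM, between the members and the C1q macrophages of low score. Their median depth was 19339 and 21916 UMIs, and the score counts UMIs, so depth differs with the sets and its part was not tested.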
